A study of Mus musculus with 6 samples.

Results

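The genes described are 9 of the 32179 in the deposited table: 3 receptors for fibroblast growth factors (Fgfr1, Fgfr2 and Fgfr3), the receptor-like gene Fgfrl1, the ligands Fgf1, Fgf2, Fgf7 and Fgf10, and the adaptor Frs2. They were selected by gene name with results of the comparison of iSM-G5C-KO with control libraries already in view, in which Fgfr2 ranked among the lower genes. Their differences between the groups are therefore a description, and no p is given for them.

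RNA came from vascular smooth muscle cells of skeletal muscle of male C57BL6J mice aged 8 to 24 weeks. The iSM-G5C-KO group had 3 libraries, from mice given tamoxifen to deplete GPRC5C, an orphan receptor of the G protein-coupled class, from smooth muscle. The control group also had 3 libraries from tamoxifen-induced mice. The control genotype is given as wild type, while the source label of both groups reads Gprc5c-floxed. Mice of both groups carried the mTmG reporter, which marks cells with EGFP after Cre recombination, and viable EGFP-positive cells were sorted after depletion of cells that bound antibodies to CD31, CD45 or Ter119. The sources used here name neither the promoter that drives Cre nor the alleles of the controls beyond these labels.

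Fibroblast growth factors bind receptor tyrosine kinases on the cell surface together with heparan sulfate, the sulfated sugar chains of proteoglycans. The activated receptor phosphorylates the membrane-anchored adaptor FRS2, which recruits GRB2, GAB1 and the phosphatase SHP2 and so feeds the Ras-MAPK and PI3K pathways. In smooth muscle, FGF signalling is known for favouring proliferation over the contractile state, with FGFR1 as the best studied receptor. FGF1 and FGF2 lack a classical secretion signal and bind several receptors, whereas FGF7 and FGF10 are secreted by mesenchymal cells and act mainly on the epithelial splice form of FGFR2.

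Each library held an estimated 1477485 to 2935114 reads. Control library 3 had 29707 genes above 0, against 20481 to 21179 in the other 5 libraries. Gprc5c had normalised counts of 328, 305 and 360 in KO libraries 1, 2 and 3, against 428, 532 and 497 in control libraries 1, 2 and 3, and the KO mean was 68.2% of that of the controls. Of 10 smooth muscle markers fixed for the check of the cell type, all had rows, and their summed values were 12125 to 14069 in KO libraries and 13713 to 14348 in controls. The 8 pericyte markers summed to 10875 to 18088 in KO libraries and 10197 to 15680 in controls, and 10 fibroblast markers to 4431 to 7650 and 5243 to 8075. Lower sums were seen for endothelial markers (406 to 952 in KO libraries and 350 to 682 in controls) and leukocyte markers (118 to 535 and 112 to 464), and 10 skeletal muscle fibre genes summed to 2023 to 8810 and 1445 to 3421. The epithelial markers with a row summed to 0 to 10 in KO libraries and 4 to 18 in controls. The smooth muscle markers were thus abundant in every library, beside genes listed as markers of other cells of the vessel wall and muscle. Bulk values do not show which cells the transcripts of these lists came from. The KO library had the higher sum in 3 of 3 same-numbered pairs for pericyte, endothelial and muscle fibre markers, with the KO mean higher in 8 of 8, 10 of 10 and 8 of 10 genes. Much of the muscle fibre sum was Ttn, at 660, 1638 and 5386 in KO libraries and 422, 442 and 868 in controls. Between the libraries numbered 3, Ttn, Neb, Ryr1, Myh2 and Myh4 were higher in the KO library. Acta1, Ckm, Myh1, Tnnt3 and Mylpf were lower there. Smooth muscle markers had the lower KO mean in 8 of 10 genes. The part of these markers in the values below was not tested.

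All 9 genes had a mean of at least 10 over the 6 libraries and entered the fit. Fgf10, with a mean of 11.0, lay just above that limit and Fgfr3, with 15.2, next, and Fgf10 reached it through the controls, since its KO mean was 9.0. Over all 12735 tested genes, limma called 0 genes at an adjusted p of 0.05 (0%), while 230 were below 0.05 unadjusted. Once the replicate number was added as a block, it called 1 gene (0.00785%), Cd300a, while 1305 reached an unadjusted p under 0.05. None of the 9 genes was among the called genes in either fit.

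Promoter sequence is shown for Fgfr2 and Fgfr3, because they had the most similar profile among the receptors over the 6 libraries. Their Pearson r was 0.94 on log2(value + 1), a description over 6 libraries that share depth and library number. The printed windows differ in base composition. That contrast holds for these windows only, since the Fgfr2 window lies away from most annotated starts of the gene, as given below. The windows run from 250 bases before to 50 after a RefSeq start on GRCm38.p6 and are written 5′ to 3′ on the gene's strand, with GC boxes (GGGCGG on either strand) in capitals. Fgfr2 is chr7:130266759-130267058 on the minus strand, and Fgfr3 is chr5:33721474-33721773 on the plus strand, the first of 2 Fgfr3 windows.
Fgfr2: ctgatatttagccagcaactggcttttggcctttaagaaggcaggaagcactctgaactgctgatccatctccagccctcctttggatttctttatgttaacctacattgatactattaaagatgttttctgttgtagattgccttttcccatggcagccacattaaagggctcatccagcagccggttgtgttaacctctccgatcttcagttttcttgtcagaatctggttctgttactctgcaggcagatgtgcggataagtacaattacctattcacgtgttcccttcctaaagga
Fgfr3: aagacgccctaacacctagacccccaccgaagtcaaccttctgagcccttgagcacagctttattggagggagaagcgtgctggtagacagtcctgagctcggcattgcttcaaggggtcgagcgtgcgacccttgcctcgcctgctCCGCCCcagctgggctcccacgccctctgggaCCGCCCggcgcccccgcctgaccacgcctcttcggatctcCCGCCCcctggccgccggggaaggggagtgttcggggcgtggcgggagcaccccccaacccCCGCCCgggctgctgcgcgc

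The Fgfr2 window held 4 CpG dinucleotides, 43.7% G and C and 0 GC boxes, and the Fgfr3 window 26 CpGs, 69.7% G and C and 4 GC boxes. A GC box was present in 35.7% of all 32851 windows of that length, and the median window held 7 CpGs. Neither window held a CArG box, the motif bound by serum response factor, on either strand, which 1.63% of all windows did, nor the letters TATAAA on either strand, which 13.6% did. Windows were examined for 7 of the 9 genes.

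Fgfr2 (ENSMUSG00000030849, chromosome 7, 130162451 to 133123350, minus strand, GRCm38) encodes the receptor for FGF7 and FGF10 in its epithelial splice form and for a wide set of ligands in its mesenchymal form. Its normalised counts were 52, 46 and 27 in KO libraries 1, 2 and 3, against 72, 102 and 69 in control libraries 1, 2 and 3. Every KO library lay below every control. The means were 41.7 ± 13.1 in KO libraries and 81.0 ± 18.2 in controls (SD, n = 3 each), so that the KO libraries had 51.4% of the control level. These values rest on an estimated 63, 50 and 19 reads in KO libraries and 95, 111 and 52 in controls.

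On the log2(value + 1) scale the Fgfr2 difference was -0.97, with a standard error of 0.28 without a block and 0.20 with the replicate number as a block. Between same-numbered libraries it was -0.46, -1.13 and -1.32 for numbers 1, 2 and 3, so the pair with the highest total depth showed the smallest difference. Estimated Fgfr2 reads were highest in library 1 among KO libraries, at 63, and in library 2 among controls, at 111. Without control library 3, which stands apart in its number of detected genes, the difference was -1.07. Fgfr2 was the single member of the 9 whose KO values all lay below the controls, a pattern found in 282 of the 12735 tested genes (2.21%). Since the gene was chosen with this difference in view, that count is given as background and nothing is read from it.

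Cartilage and tendon markers, smooth muscle markers and fibroblast markers each had a lower mean in KO libraries in 8 of 10 genes. The cartilage and tendon markers summed to 674, 437 and 510 in KO libraries 1, 2 and 3 and 874, 934 and 591 in controls, lower in the KO library of 3 of 3 numbers. Sox9, a transcription factor of cartilage, was at 18, 17 and 21 in KO libraries and 43, 35 and 46 in controls. Acan, the cartilage proteoglycan aggrecan, was at 42, 46 and 8 in KO libraries and 146, 75 and 46 in controls. Col2a1, the cartilage collagen, was at 5, 2 and 73 in KO libraries and 197, 321 and 4 in controls, so the groups overlapped. Prg4, which encodes the joint lubricant lubricin, was at 50, 52 and 53 in KO libraries and 26, 27 and 52 in controls. Without Col2a1 the other 9 markers summed to 669, 435 and 437 in KO libraries and 677, 613 and 587 in controls, lower in the KO library of 3 of 3 numbers. Scx, a tendon transcription factor, stayed between 1 and 6 in all 6 libraries. Fewer cells of a type and less RNA per cell cannot be told apart in bulk libraries, and the part of these markers in the Fgfr2 values was not tested.

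The annotated span of Fgfr2 covers 2960900 bases and 68 other genes lie wholly inside it, because 1 annotated transcript starts far upstream of the rest. The promoter window shown above surrounds a RefSeq start and lies upstream of the GENCODE M21 starts of Fgfr2 other than that distant 1. Exons of Fgfr2 share 314 bases, 3.04% of their length, with exons of Ctbp2 on the same strand, a corepressor gene. Ctbp2 had 116, 117 and 106 in KO libraries and 137, 131 and 125 in controls, with a log2 fold change of -0.21 (SE 0.12). The sources used here do not state how reads in shared bases were counted. The values also sum over splice forms, so the epithelial and mesenchymal forms cannot be told apart. The epithelial splicing regulator Esrp1, Epcam and the keratin genes Krt5, Krt8 and Krt18 were at 0 in at least 3 of 6 libraries. Cdh1, the other epithelial marker with a row, was at 7, 0 and 1 in KO libraries and 10, 4 and 7 in controls. The epithelial sum was 10, 0 and 4 in KO libraries 1, 2 and 3 and 11, 4 and 18 in controls. It was thus lower in the KO library of 3 of 3 numbers, by a single count for number 1. The highest sum lay in control library 3, the library with 29707 genes above 0. The part of the epithelial markers in the Fgfr2 values was not tested.

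**Figure D1:**
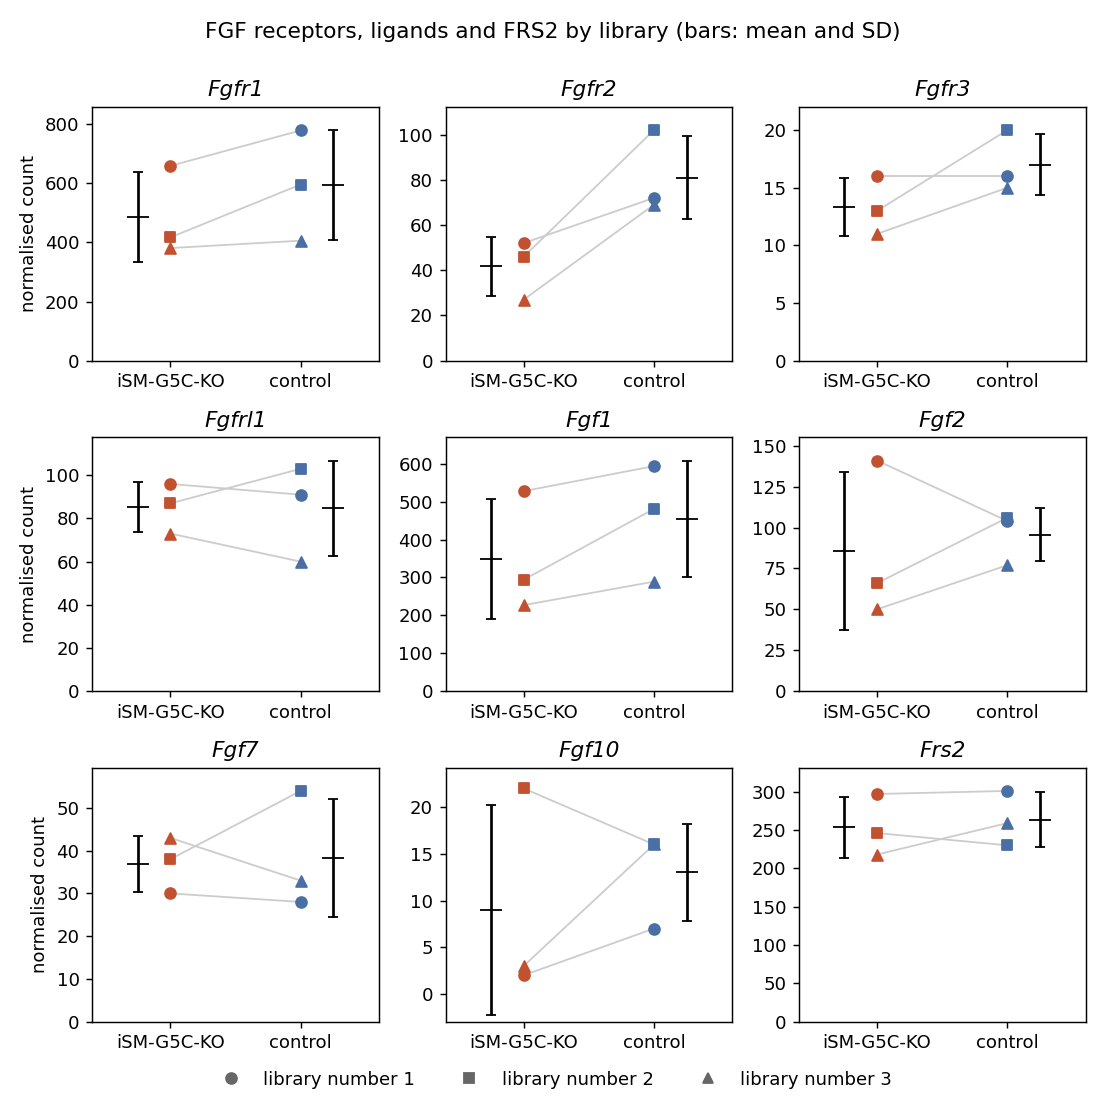
Normalised counts (y axis) of the 9 genes in iSM-G5C-KO libraries (left in each panel) and control libraries (right), with 1 symbol shape per library number, grey lines between same-numbered libraries, and bars for the mean and SD of 3 libraries. Fgfr2 is the panel in which the groups do not overlap, at 27 to 52 in KO libraries and 69 to 102 in controls.

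Fgfr1 (ENSMUSG00000031565, chromosome 8, 25518759 to 25575718, plus strand) encodes the receptor of FGF1 and FGF2 that is most often described in vascular smooth muscle. Its normalised counts were 659, 417 and 381 in KO libraries 1, 2 and 3, against 779, 596 and 406 in control libraries 1, 2 and 3. The groups overlapped, and in both of them library 1 was highest and library 3 lowest. The means were 485.7 ± 151.2 in KO libraries and 593.7 ± 186.5 in controls (SD, n = 3 each), a log2 difference of -0.28. Its standard error was 0.28 without a block and 0.09 with it, and the same-numbered differences were -0.24, -0.51 and -0.09.

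Fgfr3 (ENSMUSG00000054252, chromosome 5, 33721724 to 33737068, plus strand), best known as a brake on the growth of cartilage, was close to the lower limit of detection. It had 16, 13 and 11 in KO libraries and 16, 20 and 15 in controls, from an estimated 8 to 19 reads in KO libraries and 11 to 22 in controls. The groups overlapped, and the libraries numbered 1 had equal values. The log2 difference was -0.33 (SE 0.31), and leaving out 1 library gave -0.46 to -0.21. Of its exonic bases 13.9% are shared with a gene on the opposite strand, G630022F23Rik, which did not exceed 1 in any library.

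Fgfrl1 (ENSMUSG00000008090, chromosome 5, 108694268 to 108706924, plus strand) encodes a receptor-like protein that binds FGFs but lacks the intracellular kinase. It had 96, 87 and 73 in KO libraries and 91, 103 and 60 in controls, with means of 85.3 ± 11.6 and 84.7 ± 22.2 (SD, n = 3 each). The log2 difference was 0.04 (SE 0.23), and the KO library was the higher of its pair for numbers 1 and 3 and the lower for number 2. The difference turned to -0.19 without control library 3 and to -0.05 without KO library 1.

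The balance between receptor genes within a library does not depend on how libraries were scaled, but it does depend on the gene lengths used. Annotated exons cover 10328 bases in Fgfr2 and 9875 in Fgfr1, against 4311 and 5041 in their longest coding transcripts. Per kb of annotated exon, Fgfr2 made up 6.04%, 7.98% and 4.86% of the summed values of Fgfr1, Fgfr2, Fgfr3 and Fgfr4 in KO libraries 1, 2 and 3, and 7.42%, 12.2% and 11.4% in control libraries 1, 2 and 3. The groups overlapped on this scale, since KO library 2 lay above control library 1. The Fgfr1 share was 75.8% ± 4.16 in KO libraries and 76.3% ± 7.01 in controls, and the Fgfr4 share 14.9% ± 4.91 and 10.2% ± 4.36 (SD, n = 3 each). Fgfr4, a receptor known from liver and from muscle progenitors, had 33, 26 and 39 in KO libraries and 21, 27 and 31 in controls. It was not among the 9 genes, and its log2 fold change was 0.30 (SE 0.26, adjusted p = 0.999 with limma). Fgfr1 was the most abundant receptor gene per length in every library of both groups.

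**Figure D2:**
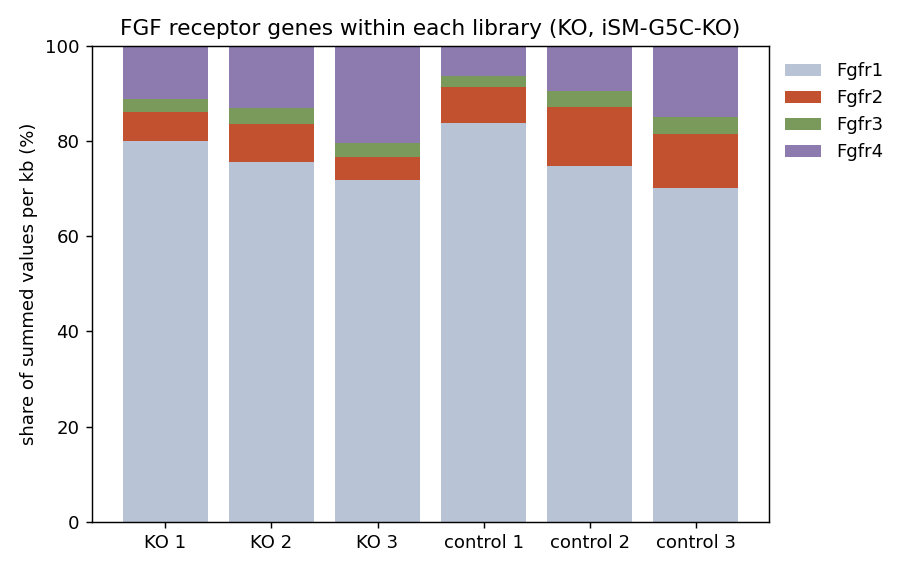
Share of each FGF receptor gene in the summed values per kb of exon (y axis, %) within each of 3 iSM-G5C-KO libraries (KO, left) and 3 control libraries (right). Fgfr1 holds 70.1% to 83.9% in every library, and the Fgfr2 share runs from 4.86% to 7.98% in KO libraries and from 7.42% to 12.2% in controls.

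Among the ligands, Fgf1 (ENSMUSG00000036585, chromosome 18), a ligand of all FGF receptors, had the highest values. They were 528, 294 and 227 in KO libraries 1, 2 and 3, against 594, 481 and 289 in control libraries 1, 2 and 3. Each KO library lay below the control of its number, while the groups overlapped. The means were 349.7 ± 158.0 in KO libraries and 454.7 ± 154.2 in controls (SD, n = 3 each), and the log2 difference was -0.41, with a standard error of 0.36 without a block and 0.11 with it.

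Fgf2 (ENSMUSG00000037225, chromosome 3, 37348346 to 37410108, plus strand), the basic FGF that is stored on heparan sulfate in the matrix, had 141, 66 and 50 in KO libraries and 104, 106 and 77 in controls. The KO libraries held both the highest and the lowest of the 6 values. The same-numbered differences were 0.44, -0.68 and -0.61 on the log2 scale, and their mean was -0.28 (SE 0.36). It was 0.03 without KO library 3, where its sign turned, and -0.71 without KO library 1. Exons of Fgf2 share 9.44% of their length with Nudt6 on the opposite strand, which had 27, 28 and 22 in KO libraries and 25, 18 and 24 in controls.

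Fgf7 (ENSMUSG00000027208, chromosome 2, 126034658 to 126091185, plus strand), the keratinocyte growth factor, had 30, 38 and 43 in KO libraries and 28, 54 and 33 in controls. Its log2 difference was -0.01 (SE 0.29), and it turned to 0.26 without control library 2 and to 0.13 without KO library 1. It was lowest in library 1 of both groups, where Fgf1 was highest. Fgf10 (ENSMUSG00000021732, chromosome 13, 118714699 to 118792115, plus strand), a mesenchymal ligand of limb and lung buds, had 2, 22 and 3 in KO libraries and 7, 16 and 16 in controls. KO library 2 held the highest value of all and the other KO libraries the lowest, from an estimated 2 reads each, so its log2 difference of -1.02 had a standard error of 0.82. It was -1.93 without KO library 2 and -0.46 without KO library 1.

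Frs2 (ENSMUSG00000020170, chromosome 10, 117069427 to 117148510, minus strand), the adaptor that docks signalling proteins on activated receptors, had 297, 246 and 218 in KO libraries and 301, 230 and 259 in controls. The means were 253.7 ± 40.1 in KO libraries and 263.3 ± 35.7 in controls (SD, n = 3 each), a log2 difference of -0.06 (SE 0.16). With the replicate block the standard error was 0.10. The sign turned without KO library 3, to 0.05, and without control library 1, to 0.04.

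In 8 of the 9 genes the difference was below 0, and its median was -0.28 on the log2(value + 1) scale. Over all 12735 tested genes 49.8% were below 0 and the median was 0.00. Fgfr1, Fgfr2 and Fgf1 were lower in the KO library of 3 of 3 numbers, a pattern found in 15.4% of all tested genes, and 0 of the 9 were higher in 3 of 3. The members were chosen with this comparison known, so these counts describe them and support nothing.

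**Figure D3:**
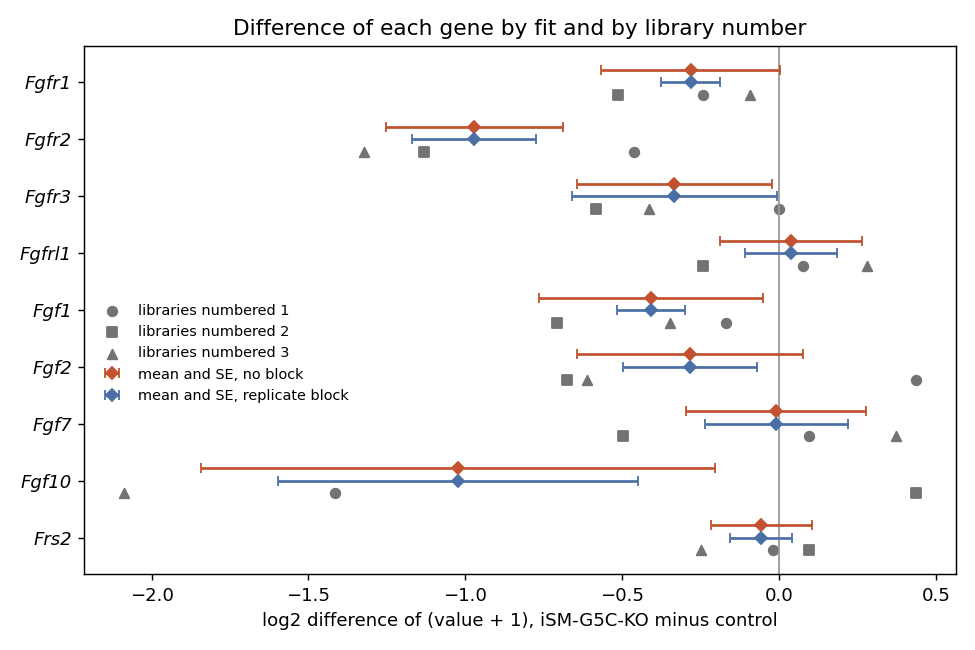
Log2 difference of value + 1, iSM-G5C-KO minus control (x axis), for each gene: the mean with its standard error from limma without a block (red) and with the replicate number as a block (blue), and the difference between the libraries of each number (grey). For Fgfr1, Fgfr2 and Fgf1 the 3 grey points lie below 0, whereas for Fgfrl1, Fgf2, Fgf7, Fgf10 and Frs2 they lie on both sides of it.

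The library number carried more of the spread than the group in 7 of the 9 genes. The number has more levels than the group, which by itself favours it in this comparison. It held 82.1% of the sum of squares of Fgfr1 over the 6 libraries on the log2 scale and 79.6% of that of Fgf1, against 13.0% and 15.7% for the group. In Fgfr2 the number held 22.2% and the group 68.0%, and in Fgfr3 32.0% and 44.1%. Over all tested genes the median was 62.0% for the number and 9.40% for the group. What a number marks is not in the labels. The estimated depth was highest in the libraries numbered 1 and lowest in those numbered 3, and its part in these values cannot be told apart from that of the number.

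Per kb of annotated exon, Fgf1 and Fgfr1 stood highest, with 64.0 ± 28.9 and 49.2 ± 15.3 normalised counts per kb in KO libraries and 83.2 ± 28.2 and 60.1 ± 18.9 in controls (SD, n = 3 each). Their group spreads overlapped, although Fgf1 lay above Fgfr1 in 6 of 6 libraries. Fgfrl1 and Frs2 followed, at 30.7 ± 4.17 and 29.0 ± 4.58 per kb in KO libraries and 30.4 ± 7.98 and 30.1 ± 4.08 in controls, and these neighbours did not differ beyond their spread. Fgf2 and Fgf7, at 12.6 ± 7.16 and 11.4 ± 2.02 in KO libraries and 14.1 ± 2.39 and 11.8 ± 4.25 in controls, did not either. Fgfr2 came next, with 4.03 ± 1.26 per kb in KO libraries and 7.84 ± 1.77 in controls, and lay below Fgf7 in 6 of 6 libraries. Fgf10 and Fgfr3 were lowest, at 1.96 ± 2.45 and 1.86 ± 0.35 in KO libraries and 2.83 ± 1.13 and 2.38 ± 0.37 in controls, without a difference beyond their spread.

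The order of the 9 levels by group mean was the same in both groups on this scale. It depended on the length used. An alternative chosen after seeing the data took the longest coding transcript in place of all annotated exons. By group mean, Fgfr1 then stood above Fgf1 in both groups and Frs2 above Fgfrl1, in 4 of 6 and 5 of 6 libraries. Fgfr2 had means of 9.67 per kb in KO libraries and 18.8 in controls with this length. These placed it below Fgf2 and Fgf7 in KO libraries and above them in controls. Library by library, Fgfr2 lay above Fgf2 in 2 of 6, so this placing describes the group means only.

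**Figure D4:**
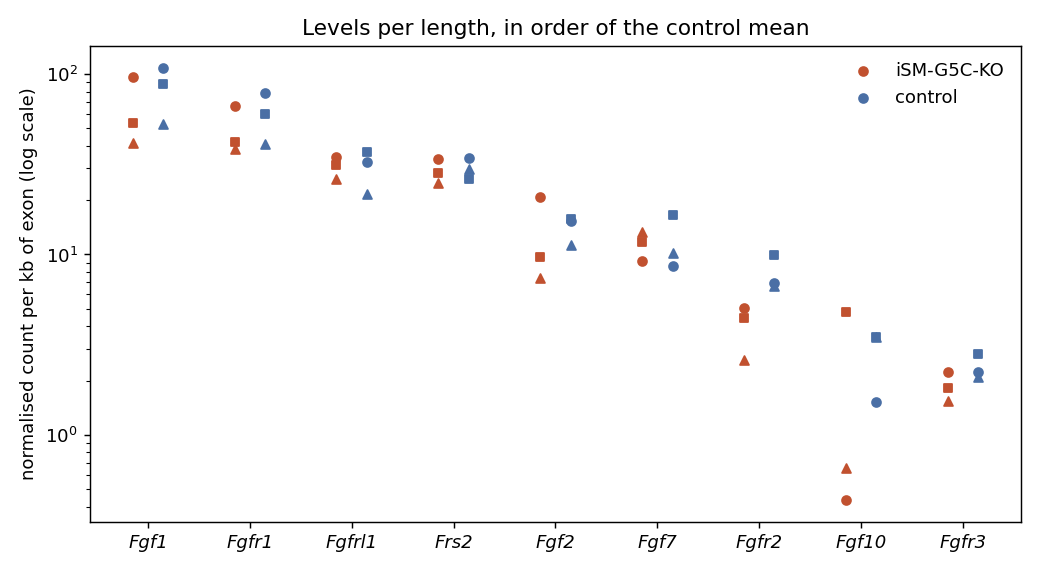
Normalised counts per kb of annotated exon (y axis, log scale) of the 9 genes in the order of their control mean, with 3 iSM-G5C-KO libraries (red, left) and 3 control libraries (blue, right) each, and 1 symbol shape per library number. Fgf1 and Fgfr1 lie highest, and Fgf10 in KO libraries 1 and 3 lies lowest, at 0.43 and 0.65.

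The 5 genes most like Fgfr2 over the 6 libraries, among 8340 others with a mean of at least 50 with predicted genes set aside by their symbols, were Samm50 (Pearson r = 0.98), R3hcc1 (0.97), Cfap97 (0.96), Zfp386 (0.96) and Arc (0.95). Zfp386 had 238, 181 and 146 in KO libraries and 252, 287 and 243 in controls, and Arc, an immediate early gene, 95, 88 and 50 in KO libraries and 122, 127 and 125 in controls. Samm50 followed the same profile over a far smaller range, at 172 to 180 in KO libraries and 182 to 186 in controls. The 5 genes most like Fgfr1 were Sox13, Zfp106, Mir22hg, Pcgf5 and Lgi2, each with r of at least 0.99. Lgi2 had 293, 120 and 106 in KO libraries and 357, 224 and 109 in controls, highest in library 1 and lowest in library 3 of both groups, as Fgfr1 was. These are the highest of many correlations over 6 libraries that share depth and number, and they are given as a description.

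The rest of the pathway was followed in 5 lists with 70 tested genes outside the 9. With limma 0 of the 70 passed an adjusted p of 0.05, higher or lower (smallest adjusted p = 0.999), and 0 were below 0.05 unadjusted. In the blocked fit 0 passed as well (smallest adjusted p = 0.173), and 10 were below 0.05 unadjusted. Of the 70, 32 were lower and 38 higher in KO libraries, and their median log2 fold change was 0.01. A further 21 list genes had a mean under 10 and were not tested, and 4 more were not analysed here.

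Other FGF genes were mostly near 0. Of 17 with a row, 14 had a mean under 10 and did not exceed 12 in any library. Fgf11 and Fgf13, which encode FGF homologous factors that stay inside the cell, and the secreted ligand Fgf18 were tested. Fgf18 had 60, 18 and 14 in KO libraries and 91, 23 and 7 in controls, a log2 fold change of -0.01 (SE 0.89), and 92.5% of its spread lay with the library number. Fgf13 was at 45, 21 and 24 in KO libraries and 46, 46 and 24 in controls, and Fgf11 at 85, 79 and 81 and at 71, 84 and 72.

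Among other receptors and co-receptors, Klb, the co-receptor of hormone-like FGFs, did not exceed 2 in any library. Flrt1 and Flrt2, membrane proteins known to bind FGF receptors, had log2 fold changes of -0.01 (SE 0.33) and -0.31 (SE 0.41). Fgfr4 is described above with the other receptors.

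In the list of heparan sulfate proteoglycans and the enzymes of their chains, 12 of 18 tested genes were higher in KO libraries and 6 lower. Their median log2 fold change was 0.03. Sulf1, which removes sulfate groups from the chains outside the cell, had 263, 341 and 300 in KO libraries and 242, 252 and 257 in controls, without overlap, a log2 fold change of 0.26 (SE 0.13, adjusted p = 0.999 with limma). The proteoglycan Sdc1 was at 189, 408 and 450 in KO libraries and 166, 301 and 321 in controls, higher in each pair, a log2 fold change of 0.37 (SE 0.37, and 0.09 with the block). Glce, an enzyme of chain synthesis, was at 176, 182 and 206 in KO libraries and 153, 149 and 178 in controls.

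Of 30 tested genes of the signal relay between receptor and MAPK or PI3K, 17 were lower and 13 higher in KO libraries. Their median log2 fold change was -0.01. Gab2, an adaptor that binds SHP2 and PI3K, was at 382, 218 and 196 in KO libraries and 479, 335 and 251 in controls, a log2 fold change of -0.43 (SE 0.31, and 0.09 with the block, adjusted p with limma and the block = 0.173). Rasa1, which switches Ras off, had 240, 203 and 188 in KO libraries and 233, 236 and 240 in controls.

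Genes known to be induced by FGF and ERK signalling, among them its feedback inhibitors, were higher in 11 of 16 and lower in 5. Their median log2 fold change was 0.08. Dusp4, a nuclear MAPK phosphatase, had 143, 144 and 195 in KO libraries and 125, 108 and 133 in controls, without overlap, a log2 fold change of 0.38 (SE 0.17, adjusted p = 0.999 with limma). The Ras-MAPK inhibitor Spry4 had 423, 542 and 644 in KO libraries and 391, 391 and 551 in controls. Dusp5, an ERK phosphatase, had 71, 30 and 17 in KO libraries and 109, 42 and 38 in controls, a log2 fold change of -0.73 (SE 0.57). Of the 16 genes, 0 passed the test.

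Of the 70 genes, 2 had all KO values above the controls, Sulf1 and Dusp4, where 2.69% of all tested genes did, and 0 had all below. The KO library was the higher in 3 of 3 pairs in 15 of the 70 and the lower in 7, against 14% of all tested genes for higher and 15.4% for lower.

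**Figure D5:**
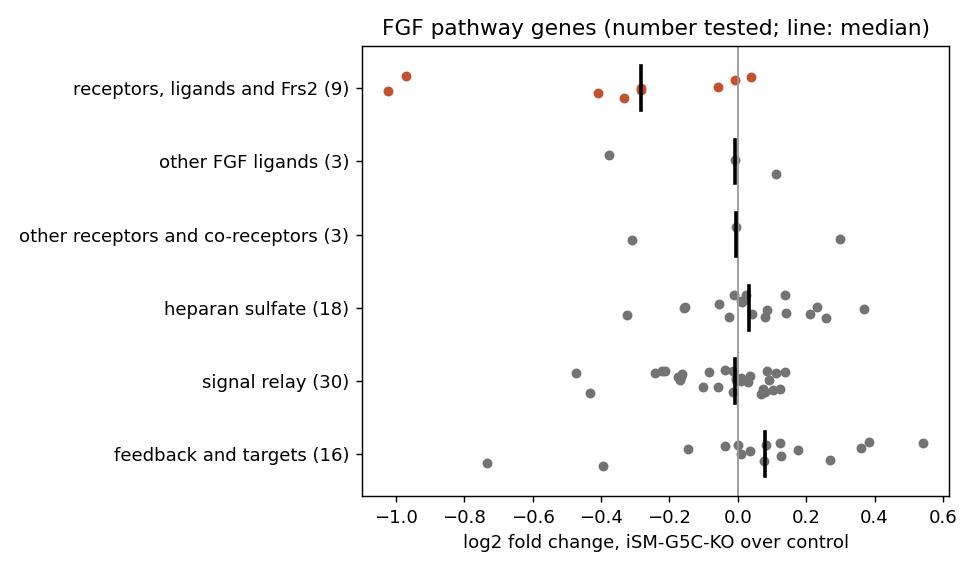
Log2 fold change on the value + 1 scale, iSM-G5C-KO over control (x axis), for the 9 described genes (red) and the tested genes of 5 other lists of the FGF pathway (grey), 1 point per gene with a line at each list's median. The medians of the grey lists lie between -0.01 and 0.08, and Dusp5 is their lowest point, at -0.73.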

How the data were processed

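The deposited table gives 1 value per gene and library, treated here as a score. The authors scaled the reads counted for a gene by a library factor and rounded the outcome, as the deposited table's name and the gaps among its low values show. Named without roles in the submitters' processing notes are DESeq2 1.18.1, featureCounts 1.6.5, STAR 2.6.1d and Trimmomatic 0.39, and the builds GRCm38.p5 and mm10. The sources used here do not say whether counting used strand or duplicates were removed. The worth of 1 read was estimated by a grid search from 0.6 to 2.0 in steps of 0.0005. Estimated reads are used only to show precision, since rounding hides the exact read numbers.

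Groups came from the sample descriptions. limma 3.58.1 in R 4.3.3 was run on log2(value + 1) with an intensity trend, 2-sided, over 12735 genes (mean of 10 or more). Adjustment was by Benjamini-Hochberg and the threshold 0.05. The script was tested on simulated data first. Adding 1 shrinks the log2 differences of low genes. That of Fgf10 was -1.02, against -1.12 with 0.5 added and -0.60 with 5 added. Such a difference averages logarithms, so it can also exceed the change in group means. The Fgf10 KO mean was 69.2% of the control mean. The 9 genes, the pathway and marker lists and the tests were chosen with earlier results of these data known, so the values of the 9 genes are given as a description, with no p. From each other pathway list the 3 genes with the smallest unadjusted p are named, and the 5 genes most like Fgfr2 and Fgfr1 by Pearson r. A gene that this rule names is not reported here. Lengths are the union of exons in GENCODE M21 (GRCm38), a later release than the one behind the table.

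No label ties the libraries of a group to separate animals. The p-values therefore cover the spread between these libraries only, which may be technical. After the group means were subtracted, KO and control library 1 correlated at 0.59 over genes, the libraries numbered 2 at 0.31 and those numbered 3 at 0.44. Between different numbers the correlation did not exceed 0.16. The numbers were therefore treated as pairing the libraries, a pairing that comes from the data, and a fit with the number as a block was run beside the first. Alternatives were other pseudocounts, filters, scalings, variance settings and library weights, and leaving out libraries.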

Additional observations from a re-analysis of the deposited data

How the results depend on the processing

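Depth limits the low genes most: Fgfr3 and Fgf10 rest on at most 24 estimated reads in a library. The count of genes past an adjusted p of 0.05 with limma was 0 and became 1 with the replicate block, 2 with sample quality weights, 61 in the blocked fit of numbers 2 and 3 alone, and 1 in that of numbers 1 and 3 alone. The cause was not tested. It was 0 in each fit that left out 1 library, and none of the 9 genes or of the 70 other pathway genes was called under any of the 18 alternatives. The replicate block over all 6 libraries, the filters and limma without trend leave a gene's difference unchanged by construction. The sign counts that follow therefore partly repeat the main fit and support nothing. The Fgfr2 difference kept its sign in 18 of 18, from -1.24 with sample quality weights to -0.69 without KO library 3. Leaving out 1 library gave -1.15 to -0.69. Fgfr1 and Fgf1 were lower in 18 of 18 as well, from -0.53 to -0.06 and from -0.75 to -0.14. Fgfr3 and Fgf10 also kept their sign in 17 of 17, from -0.56 to -0.21 and from -1.93 to -0.46, while Fgfrl1 (14 of 18), Fgf2 (17 of 18), Fgf7 (14 of 17) and Frs2 (14 of 18) changed it under some alternatives. The replicate block changed no call among the 9 genes and the other pathway genes.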
